A study of Mus musculus with 6 samples.

Results

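The lysosome is the acidic compartment in which liver cells break down proteins, lipids, glycogen and complex sugars, and autophagy is the route by which cytoplasm and organelles are wrapped in a membrane and delivered to it. Transcripts of 49 lysosome and autophagy genes were examined in the livers of ethanol-fed and pair-fed mice. The 49 genes were chosen by name, as lysosomal membrane proteins, lysosomal enzymes, the transcription factors TFEB and TFE3, and the proteins that build the autophagosome or bring cargo to it. Of these, 48 were found by their gene names among the 13273 genes of the deposited table, and Map1lc3b was not analysed here.

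The ETOH-WT group comprised 3 mice that received the Lieber–DeCarli liquid diet with ethanol (ETOH), whose content was raised in steps, for 3 weeks. The PF-WT group comprised 3 mice that received the isocaloric control diet over the same time, as pair-fed controls. All 6 mice were wild type and on the C57Bl/6 strain, with 1 liver library per mouse. The WT mice given these diets were female and were 2 months old when the diets began. The labels also carry a code that is the same within a diet and differs between the diets, so anything that this code marks cannot be told apart from the diet.

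Values were taken as FPKM, that is, fragments scaled by the length of the transcript and by the size of the library. They summed to 567808 to 625003 per library. ETOH-WT liver 1 has no gene listed at 0, with a lowest value of 0.0867 FPKM, while the other libraries have 86 to 163. How the genes of the table were chosen was not resolved here, so shares over all genes refer to this table only. The number of fragments behind the values could not be resolved here, so the precision of each value rests on the spread between livers. The labelled tissue was checked with hepatocyte markers. Alb, the gene of the main protein that the liver secretes, had 52847, 46953 and 49414 FPKM in ETOH-WT livers 1, 2 and 3, against 60103, 60199 and 53968 FPKM in PF-WT livers 1, 2 and 3 and none of the 8 hepatocyte markers was listed at 0. For the test, limma was fitted to log2(FPKM + 1) of the 11346 genes whose mean reached 0.5 FPKM, and the words higher and lower are used of genes whose p, adjusted over all of these by the Benjamini-Hochberg method, was under 0.05. All 48 genes passed this filter, and their means over the 6 livers ran from 2.25 FPKM for Gla to 378 FPKM for Ctsl, with a median of 35.9 FPKM.

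As background, newly made lysosomal enzymes are tagged in the Golgi and carried to the lysosome, where many are cut into their active forms at low pH. Autophagy begins with the ULK1 kinase and a lipid kinase that contains Beclin 1. Ubiquitin-like proteins of the ATG8 family (the LC3 and GABARAP proteins) are then joined to lipid on the growing membrane and bind cargo receptors such as SQSTM1. TFEB and TFE3 are transcription factors that act on many of these genes once they enter the nucleus, through a palindromic promoter element known as CLEAR, built around the letters CACGTG. In the liver, autophagy is known for its part in the turnover of mitochondria, glycogen and lipid droplets.

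Because this element is known from the promoters of many lysosomal genes, the promoter windows of the 49 genes were searched for it. RefSeq windows on GRCm38.p6, from 250 bases before to 50 bases after a transcription start, were at hand for 42 of the 49 genes, and for Atg12, Atg16l1, Becn1, Ctsb, Ctsh, Map1lc3a and Npc1 none was at hand. The letters CACGTG, which read the same on both strands, were found in at least 1 window of 12 of the 42 genes, against 8.09% of the 27025 genes with a window (7.15% of all 32851 windows). The longer form TCACGTGA, which contains CACGTG, was found in Atg3, Ctsa, Ctsd, Gla and Mcoln1, against 1.12% of all genes. The stretches below show genes whose windows hold at least 2 matches near each other, and Gaa, which was higher in ETOH-WT livers. They are read 5′ to 3′ along the gene's strand, with up to 20 bases on each side of the matches and with CACGTG in capitals.
Ctsa, chr2:164833741-164833784, plus strand: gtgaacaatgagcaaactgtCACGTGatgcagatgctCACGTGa
Gaa, chr11:119267803-119267848, plus strand: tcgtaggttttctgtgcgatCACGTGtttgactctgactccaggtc
Lamp1, chr8:13159080-13159171, plus strand: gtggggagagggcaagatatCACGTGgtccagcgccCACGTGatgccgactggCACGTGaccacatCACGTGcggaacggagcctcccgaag
Mcoln1, chr8:3500428-3500499, plus strand: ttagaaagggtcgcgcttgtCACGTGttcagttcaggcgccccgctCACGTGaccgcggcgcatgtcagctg
Gla, chrX:134601174-134601252, minus strand: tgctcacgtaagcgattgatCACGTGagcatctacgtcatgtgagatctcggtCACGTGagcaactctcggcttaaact
Atg3, chr16:45158715-45158783, plus strand: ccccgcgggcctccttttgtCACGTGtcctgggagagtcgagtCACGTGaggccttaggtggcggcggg
The Lamp1 stretch holds 4 matches, and those of Ctsa, Mcoln1, Gla and Atg3 hold 2 each. The Ctsa stretch lies within the gene, which spans chr2:164832873-164841032, at a transcription start downstream of its first base. Of the 9 genes that were higher in ETOH-WT livers, described in the next paragraphs, 8 had a window and 2 of these, Ctsa and Gaa, held CACGTG. A match is a stretch of letters and not a measured binding site, and no binding data were analysed here.

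Most of the genes that differed between the diets encode lysosomal enzymes. Of the 48 genes, 9 were higher in ETOH-WT livers (Ctsz, Gabarapl1, Hexa, Neu1, Ctsa, Map1lc3a, Gusb, Gaa and Scarb2) and 1, Ctsc, was lower. Across the whole set of 11346 genes, the share called higher was 3.97% and the share called lower was 2.67%, which makes 6.64% in either direction. Among the 8938 genes with a mean at least as high as that of the lowest of the 48 genes, 4.59% were higher. The 48 genes were chosen with earlier results of these data known, so these shares stand beside their counts as description only. The remaining 38 genes did not pass the test. The log2 fold change was positive for 36 of the 48 genes, against 54.1% of all genes tested. Its median was 0.15, beside 0.022 over all genes tested. At an unadjusted p under 0.05, 17 of the 48 had a positive and 2 a negative log2 fold change. The share of all genes under this unadjusted cut was not counted, so the unadjusted counts here and below have no background beside them. The 3 ETOH-WT values lay above the 3 PF-WT values for 21 of the 48 genes, against 17.9% of all genes tested, and below them for 2, Ctsc and Npc2, against 11.2%.

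Of the 26 lysosomal genes, 7 were higher and 1 was lower, with a median log2 fold change of 0.33. Of the 22 autophagy genes and transcription factors, 2 were higher and 0 were lower by limma, with a median of 0.10, and at an unadjusted p under 0.05 there were 3 higher and 0 lower. The difference between these counts was not tested. The FPKM of the 26 lysosomal genes summed to 3153, 3105 and 3188 in ETOH-WT livers 1, 2 and 3, against 2629.6, 2618 and 2659 in PF-WT livers 1, 2 and 3, so the sums did not overlap. Ctsl, Lamp2 and Lamp1, the most abundant of these genes, weigh most in the sums and did not pass the test. Since the RNA came from whole liver, more cells of a type and more RNA per cell cannot be told apart. With 1 liver left out in turn, the count of higher lysosome and autophagy genes fell to 2 without PF-WT liver 2. It was 3 without ETOH-WT liver 1, 3 without ETOH-WT liver 3 and 5 without PF-WT liver 1. It was 5 without PF-WT liver 3 and 7 without ETOH-WT liver 2. Over all genes tested, the higher calls fell from 450 to 83, 264, 114, 281, 281 and 347 in these fits, in the same order. The drop was thus not confined to the lysosome and autophagy genes.

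**Figure D1:**
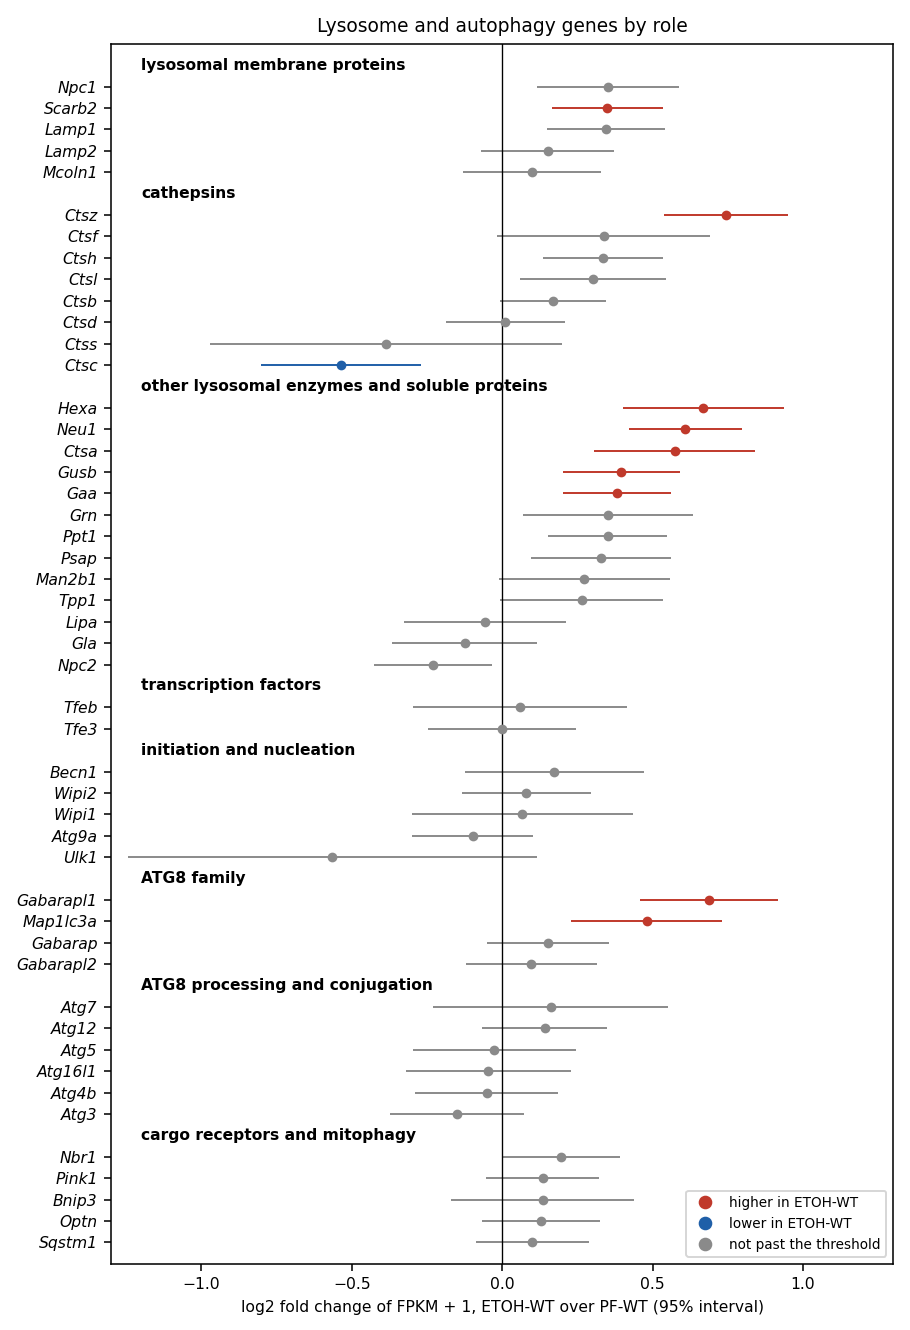
Log2 fold change of FPKM + 1, ETOH-WT over PF-WT, for the 48 genes grouped by role, with points for the estimates and lines for the 95% intervals (n = 3 livers per diet). The 9 genes in red were higher, Ctsc in blue was lower, and Ulk1 and Ctss have the widest intervals.

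**Figure D2:**
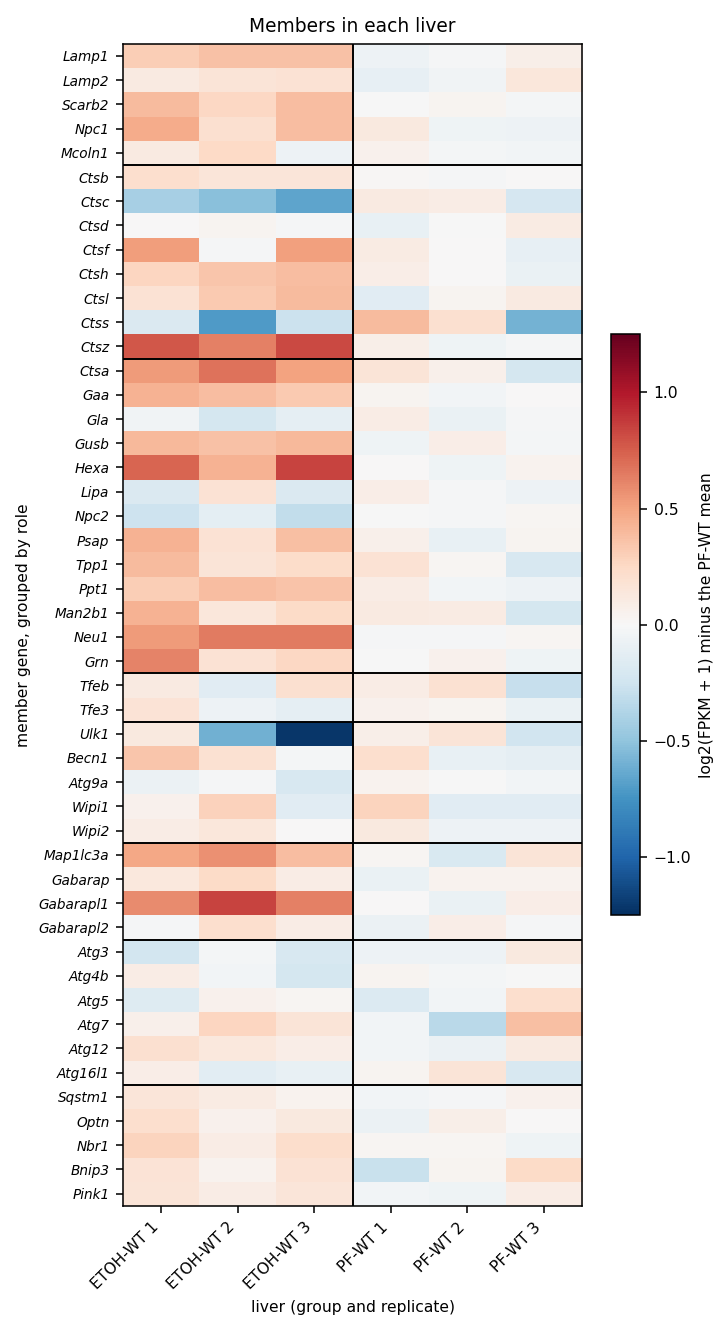
Each row is a gene and each column a liver, and the colour gives log2(FPKM + 1) minus the mean of the 3 PF-WT livers. The 3 ETOH-WT columns are red for Ctsz, Neu1, Hexa and Gabarapl1 and blue for Ctsc, while Ulk1 runs from 0.12 in ETOH-WT liver 1 to -1.22 in ETOH-WT liver 3.

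Among the lysosomal membrane proteins, Scarb2 was the only gene of 5 to pass the test, and all 5 had positive log2 fold changes, with a median of 0.35. Scarb2, which encodes LIMP-2, the receptor that carries glucocerebrosidase to the lysosome (ENSMUSG00000029426, chr5:92441314-92506833, minus strand), had 55.2, 50.2 and 54.9 FPKM in ETOH-WT livers 1, 2 and 3, against 41.6, 42.6 and 40.8 FPKM in PF-WT livers 1, 2 and 3. The groups did not overlap, and the mean was 1.28-fold that of PF-WT livers (log2 fold change 0.35 ± 0.080 (SE), adjusted p = 0.0418, limma). Lamp1, an abundant glycoprotein of the lysosomal membrane, had 365, 379 and 379 FPKM in ETOH-WT livers, against 283, 291 and 311 FPKM in PF-WT livers. These values did not overlap either, but the adjusted p of 0.0521 (limma) lay just outside the threshold. Npc1, which moves cholesterol out of the lysosome, had 41.1, 33.9 and 38.9 FPKM in ETOH-WT livers, against 32.1, 28.3 and 28.0 FPKM in PF-WT livers (adjusted p = 0.0829, limma). Npc1 was above every PF-WT liver in each ETOH-WT liver, although ETOH-WT liver 2 came within 2 FPKM of PF-WT liver 1. Lamp2, a second membrane glycoprotein that also takes part in chaperone-mediated autophagy, averaged 356 ± 8.96 FPKM in ETOH-WT livers and 321 ± 29.0 FPKM in PF-WT livers (SD, n = 3 each), and Mcoln1, a calcium channel of the lysosome, averaged 27.4 ± 3.09 FPKM in ETOH-WT livers and 25.5 ± 0.86 FPKM in PF-WT livers. For these genes the livers of the diets overlapped. The call for Scarb2 was lost without ETOH-WT liver 1 or 3 or without PF-WT liver 1, 2 or 3 (adjusted p = 0.0922 to 0.149, limma). It was also lost with median-ratio scaling (0.0693), quantile normalization (0.0760), no variance trend (0.0599) and a block for replicate number (0.106).

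The cathepsins, which cut proteins inside the lysosome, were taken as 8 genes, with Ctsa (cathepsin A) counted among the other enzymes below. Of these 8, 1 was higher (Ctsz) and 1 lower (Ctsc), and the other 6 did not pass the test. The log2 fold change was positive for 6 of the 8, with a median of 0.24, and their FPKM summed to 1355, 1366 and 1422 in ETOH-WT livers, against 1169.7, 1185 and 1175 in PF-WT livers. Ctsz encodes a carboxypeptidase (ENSMUSG00000016256, chr2:174427493-174439039, minus strand) and had 197, 177 and 204 FPKM in ETOH-WT livers 1, 2 and 3, against 120.1, 110.3 and 113 FPKM in PF-WT livers 1, 2 and 3. Every ETOH-WT liver exceeded every PF-WT liver by more than 50 FPKM. The mean was 1.68-fold that of PF-WT livers (log2 fold change 0.75 ± 0.090 (SE), adjusted p = 0.00572, limma), and this was the largest positive log2 fold change among the 48 genes and rank 207 among all genes tested. Its adjusted p stayed under 0.05 with any 1 liver left out, reaching 0.0392 at most. Ctsc encodes dipeptidyl peptidase I, which activates the serine proteases of neutrophils, mast cells and cytotoxic lymphocytes (ENSMUSG00000030560, chr7:88278085-88310888, plus strand), and had 53.9, 49.8 and 45.2 FPKM in ETOH-WT livers 1, 2 and 3, against 78.1, 77.2 and 62.3 FPKM in PF-WT livers 1, 2 and 3. The groups did not overlap, with PF-WT liver 3 the lowest of its diet and ETOH-WT liver 3 the lowest of all. The mean was 0.684 times that of PF-WT livers (log2 fold change -0.53 ± 0.12 (SE), adjusted p = 0.0353, limma), and the call was lost without ETOH-WT liver 1, 2 or 3 or without PF-WT liver 1 or 2 (adjusted p = 0.0517 to 0.145).

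Of the cathepsins that did not pass, Ctsh, an aminopeptidase, had 262, 277 and 283 FPKM in ETOH-WT livers, against 229, 217 and 206 FPKM in PF-WT livers (adjusted p = 0.0598, limma). Ctsl, the endopeptidase with the highest mean FPKM of the 48 genes, had 383, 425 and 444 FPKM in ETOH-WT livers, against 307, 345 and 364 FPKM in PF-WT livers (adjusted p = 0.133). For both genes, as for Ctsb (191, 184 and 183 FPKM in ETOH-WT livers, against 167, 164 and 166 FPKM in PF-WT livers), the ETOH-WT values lay above the PF-WT values. Ctsd, the main aspartic protease of the lysosome, averaged 209.5 ± 3.47 FPKM in ETOH-WT livers and 208 ± 14.0 FPKM in PF-WT livers (SD, n = 3 each), with a 95% interval of -0.19 to 0.21 for the log2 fold change. Ctsf, a further cysteine protease, had 18.2, 12.3 and 18.1 FPKM in ETOH-WT livers, against 13.4, 12.5 and 11.5 FPKM in PF-WT livers (adjusted p = 0.233). ETOH-WT liver 2 lay within the PF-WT range for Ctsf while the other ETOH-WT livers lay above it, and without that liver the adjusted p was 0.0334.

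Ctss, a cathepsin known for processing the invariant chain in antigen-presenting cells, had the highest coefficient of variation of the cathepsins in PF-WT livers. It had 39.8, 27.3 and 37.3 FPKM in ETOH-WT livers 1, 2 and 3, against 59.8, 52.1 and 29.6 FPKM in PF-WT livers 1, 2 and 3, and the groups overlapped because PF-WT liver 3 lay below its own diet (log2 fold change -0.39 ± 0.25 (SE), adjusted p = 0.400, limma). The Kupffer cell and macrophage markers followed nearly the same order of livers. The 12 markers (Clec4f, Vsig4, Cd5l, Timd4, Adgre1, C1qa, C1qb, C1qc, Marco, Csf1r, Cd68 and Lyz2) summed to 488, 347 and 449 FPKM in ETOH-WT livers 1, 2 and 3, against 625, 617 and 338 FPKM in PF-WT livers 1, 2 and 3. ETOH-WT liver 2 and PF-WT liver 3 were low for both the sum and Ctss. By limma 0 of these 12 markers differed between the diets and 0 had an unadjusted p under 0.05, but 11 had a negative log2 fold change, with a median of -0.24, and none was listed at 0. Ctsc too was lowest in PF-WT liver 3 among the pair-fed livers. Among the ETOH-WT livers, however, Ctsc was lowest in liver 3, whereas the sum of these markers was lowest in liver 2. The neutrophil markers S100a8, S100a9, Ly6g, Retnlg and Csf3r summed to 28.4, 22.4 and 17.3 FPKM in ETOH-WT livers, against 8.87, 12.2 and 20.1 FPKM in PF-WT livers. These sums overlapped, since PF-WT liver 3 was above ETOH-WT liver 3, and Ly6g was listed at 0 in ETOH-WT liver 2. The part of these cells in the values of Ctss and Ctsc was not tested.

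**Figure D3:**
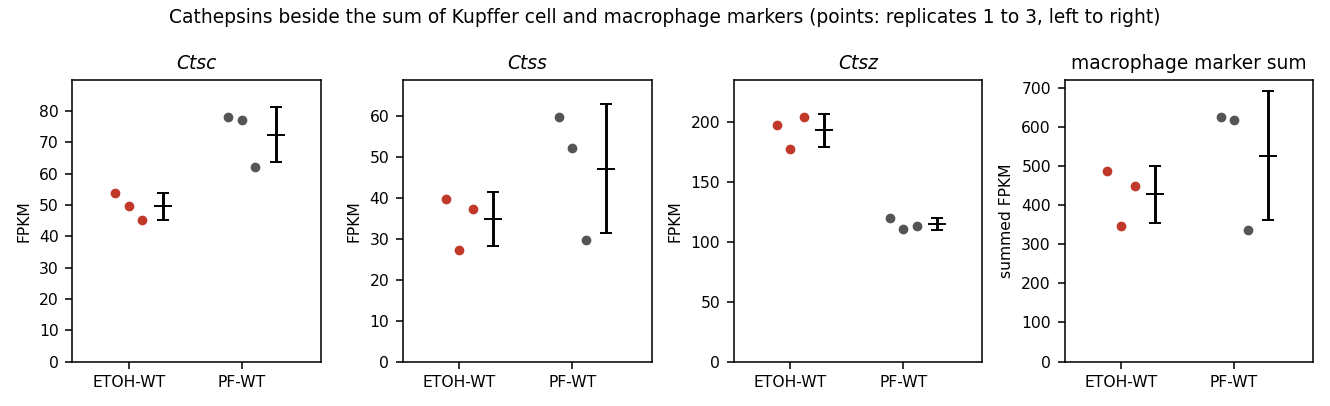
FPKM of Ctsc, Ctss and Ctsz and summed FPKM of the 12 Kupffer cell and macrophage markers in each liver, with points for replicates 1 to 3 from left to right and bars for the mean ± SD (n = 3 per diet). ETOH-WT liver 2 and PF-WT liver 3 are the low livers of their diets for Ctss and the marker sum, whereas Ctsz separates the diets.

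The other lysosomal enzymes and soluble proteins, many of which break down glycans, glycolipids and glycogen, held most of the higher genes, with 5 of 13 higher, 0 lower by limma (1, Npc2, at an unadjusted p under 0.05) and a median log2 fold change of 0.35. Neu1, Ctsa and Hexa had the largest changes, and Neu1 and Ctsa encode proteins that work in one complex, in which CTSA protects the sialidase NEU1 from breakdown. Neu1 removes sialic acid from glycans (ENSMUSG00000007038, chr17:34931253-34935953, plus strand) and had 23.8, 25.8 and 26.0 FPKM in ETOH-WT livers 1, 2 and 3, against 16.0, 16.0 and 16.5 FPKM in PF-WT livers 1, 2 and 3. The PF-WT livers lay within 1 FPKM of each other, all below the ETOH-WT livers (1.56-fold, log2 fold change 0.61 ± 0.081 (SE), adjusted p = 0.00798, limma). This call was kept with any 1 liver left out, with a highest adjusted p of 0.0476. Ctsa (ENSMUSG00000017760, chr2:164832873-164841032, plus strand) had 83.2, 92.5 and 81.6 FPKM in ETOH-WT livers 1, 2 and 3, against 64.0, 59.9 and 48.9 FPKM in PF-WT livers 1, 2 and 3. The groups did not overlap and the mean was 1.49-fold that of PF-WT livers (log2 fold change 0.57 ± 0.12 (SE), adjusted p = 0.0290, limma). The call for Ctsa was lost without ETOH-WT liver 1, 2 or 3 or without PF-WT liver 2 or 3 (adjusted p = 0.0504 to 0.0953).

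Exons of Ctsa overlap those of Pltp, the phospholipid transfer protein gene on the opposite strand, over 495 of 4715 bases. Pltp had 25.9, 21.1 and 21.9 FPKM in ETOH-WT livers, against 70.5, 104 and 90.0 FPKM in PF-WT livers (log2 fold change -1.89, limma), the opposite direction to Ctsa. The sources used here do not give whether the libraries kept the strand of the RNA, so fragments of these genes cannot be told apart where they overlap. In all, 17 of the 48 genes share exon bases with another annotated gene, among them Hexa (255 of 1996 bases, with Tmem202), Gabarapl1 (570 of 2013 bases, with 1700101I11Rik), Ctsz (10 of 1441 bases, with Nelfcd) and Becn1 (3104 of 7065 bases, with Cntd1).

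Hexa, the alpha subunit of the beta-hexosaminidase that degrades the ganglioside GM2 (ENSMUSG00000025232, chr9:59539667-59565105, plus strand), had 50.7, 41.1 and 55.3 FPKM in ETOH-WT livers 1, 2 and 3, against 30.4, 29.1 and 31.3 FPKM in PF-WT livers 1, 2 and 3. The 3 PF-WT livers were close together and the ETOH-WT livers spread above them, ETOH-WT liver 2 being the nearest (1.62-fold, log2 fold change 0.67 ± 0.12 (SE), adjusted p = 0.0188, limma). Gusb, the beta-glucuronidase that degrades glycosaminoglycans (ENSMUSG00000025534, chr5:129989011-130003049, minus strand), had 15.6, 15.2 and 15.6 FPKM in ETOH-WT livers 1, 2 and 3, against 11.03, 12.3 and 11.3 FPKM in PF-WT livers 1, 2 and 3. The mean was 1.34-fold that of PF-WT livers (log2 fold change 0.40 ± 0.084 (SE), adjusted p = 0.0338, limma). Gaa, the acid alpha-glucosidase that degrades glycogen in the lysosome (ENSMUSG00000025579, chr11:119267887-119285454, plus strand), had 37.3, 35.9 and 34.5 FPKM in ETOH-WT livers 1, 2 and 3, against 27.9, 26.7 and 27.4 FPKM in PF-WT livers 1, 2 and 3. Neither Gusb nor Gaa overlapped between the diets, and the mean of Gaa was 1.31-fold that of PF-WT livers (log2 fold change 0.38 ± 0.078 (SE), adjusted p = 0.0299, limma). The call for Hexa was lost without ETOH-WT liver 1 or 3 or without PF-WT liver 2 (adjusted p = 0.05002 to 0.0853), and that for Gaa without ETOH-WT liver 1 or 3 or without PF-WT liver 1, 2 or 3 (adjusted p = 0.0625 to 0.138). The call for Gusb was lost with any 1 of the 6 livers left out (adjusted p = 0.0538 to 0.122) and with median-ratio scaling (0.0511). A block for replicate number also ended the calls of Gaa and Gusb (adjusted p = 0.0808 and 0.0898, limma).

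The other enzymes and soluble proteins did not pass. Ppt1, which removes palmitate from proteins, came nearest, with 18.1, 19.2 and 18.8 FPKM in ETOH-WT livers, against 15.5, 14.1 and 13.9 FPKM in PF-WT livers (adjusted p = 0.0508, limma). It passed with a minimum mean of 1 FPKM (0.0482), with a robust variance trend (0.0468) and with array weights (0.00906). Array weights also called Lamp1, Npc1, Ctsf, Ctsh, Ctsl and Psap higher and Npc2 lower (adjusted p = 0.00856 to 0.0324, limma). The same setting called 1327 higher and 945 lower genes in all. Psap, the precursor of the saposins that help to degrade sphingolipids, had 340.5, 285 and 327 FPKM in ETOH-WT livers, against 263, 236 and 258 FPKM in PF-WT livers (adjusted p = 0.0957). Grn, which encodes progranulin, had 166, 122 and 129 FPKM in ETOH-WT livers, against 108, 112 and 104 FPKM in PF-WT livers (adjusted p = 0.135). For Ppt1, Psap and Grn, and for Man2b1, a mannosidase, the values of the diets did not overlap. Tpp1, a tripeptidyl peptidase, overlapped, at 39.1 ± 3.29 FPKM in ETOH-WT livers and 32.6 ± 4.40 FPKM in PF-WT livers (SD, n = 3 each). Lipa, Gla and Npc2 had negative log2 fold changes. Npc2, the soluble partner of NPC1 in cholesterol export, had 29.5, 32.8 and 28.5 FPKM in ETOH-WT livers, against 35.4, 35.3 and 36.2 FPKM in PF-WT livers (adjusted p = 0.150, limma), with the ETOH-WT livers all below the PF-WT livers. Lipa, the acid lipase that hydrolyses cholesteryl esters and triglycerides in the lysosome, had 115, 148 and 115 FPKM in ETOH-WT livers, against 138, 129 and 124 FPKM in PF-WT livers, with ETOH-WT liver 2 the highest of all and the other ETOH-WT livers the lowest. Gla, an alpha-galactosidase, averaged 2.11 ± 0.19 FPKM in ETOH-WT livers and 2.39 ± 0.21 FPKM in PF-WT livers (SD, n = 3 each).

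**Figure D4:**
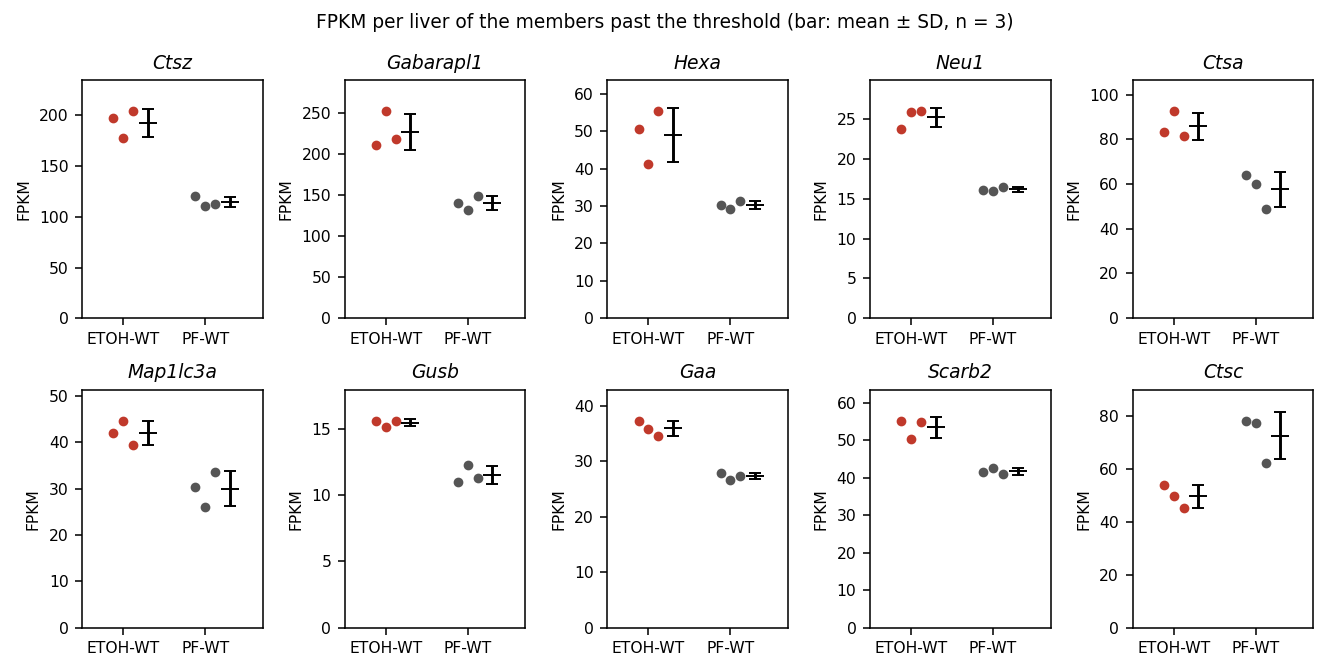
FPKM in each liver of the 10 genes past the threshold, with points for livers and bars for the mean ± SD (n = 3 per diet), each axis starting at 0. The ETOH-WT points lie above the PF-WT points for 9 genes, such as Ctsz at 197, 177 and 204 against 120.1, 110.3 and 113, and below them for Ctsc.

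The transcription factor genes gave no difference that the test could detect. Tfeb had 4.35, 3.47 and 4.68 FPKM in ETOH-WT livers 1, 2 and 3, against 4.27, 4.65 and 3.05 FPKM in PF-WT livers 1, 2 and 3, so that the lowest and highest livers of the diets were interleaved, with a 95% interval of -0.30 to 0.41 for the log2 fold change. Tfe3 had 10.2, 8.54 and 8.24 FPKM in ETOH-WT livers, against 9.32, 9.19 and 8.41 FPKM in PF-WT livers, with an interval of -0.25 to 0.24. Neither had an adjusted p below 0.859 by limma. These are transcript levels, and the place of the proteins in the cell was not measured here.

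The genes that start autophagosome formation did not pass the test either, with 0 of 5 called by limma and 0 at an unadjusted p under 0.05. Ulk1, the kinase at the head of the pathway, had 45.5, 27.3 and 17.4 FPKM in ETOH-WT livers 1, 2 and 3, against 44.2, 46.9 and 35.3 FPKM in PF-WT livers 1, 2 and 3. ETOH-WT liver 1 was within the PF-WT range and ETOH-WT livers 2 and 3 were below it, which gave a wide spread (log2 fold change -0.56 ± 0.30 (SE), adjusted p = 0.294, limma) and the highest coefficient of variation among the 48 genes, 47.4% in ETOH-WT livers. Becn1, which encodes Beclin 1 of the lipid kinase complex, averaged 28.7 ± 3.80 FPKM in ETOH-WT livers and 25.4 ± 3.40 FPKM in PF-WT livers (SD, n = 3 each). Atg9a, a membrane protein of the vesicles that seed the autophagosome, averaged 19.5 ± 1.37 FPKM in ETOH-WT livers and 20.9 ± 0.62 FPKM in PF-WT livers. Wipi1 and Wipi2, which bind the lipid made by that kinase, had log2 fold changes of 0.067 and 0.080. The livers of the diets overlapped for all 5 genes.

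The ATG8 family held the autophagy genes that differed. Gabarapl1, which is joined to lipid on the autophagosome membrane and binds cargo receptors (ENSMUSG00000030161, chr6:129533160-129542346, plus strand), had 211, 252 and 218 FPKM in ETOH-WT livers 1, 2 and 3, against 140.2, 132 and 149 FPKM in PF-WT livers 1, 2 and 3. Every ETOH-WT liver was above every PF-WT liver (1.62-fold, log2 fold change 0.69 ± 0.10 (SE), adjusted p = 0.0106, limma), and the call was lost without PF-WT liver 2 (adjusted p = 0.0589). Map1lc3a, an LC3 gene (ENSMUSG00000027602, chr2:155276297-155278073, plus strand), had 42.1, 44.7 and 39.4 FPKM in ETOH-WT livers 1, 2 and 3, against 30.3, 26.1 and 33.5 FPKM in PF-WT livers 1, 2 and 3. These groups did not overlap either (1.40-fold, log2 fold change 0.48 ± 0.11 (SE), adjusted p = 0.0407, limma), although the call was lost without ETOH-WT liver 1, 2 or 3 or without PF-WT liver 1 or 2 (adjusted p = 0.0853 to 0.148), with median-ratio scaling (0.0675) and with no variance trend (0.0517). A block for replicate number also ended the call of Map1lc3a (adjusted p = 0.0988, limma). Gabarap, a close relative, had 269.8, 291 and 262 FPKM in ETOH-WT livers, against 233, 253 and 254 FPKM in PF-WT livers (adjusted p = 0.337), with values that did not overlap but lay close together. Gabarapl2 averaged 16.6 ± 1.35 FPKM in ETOH-WT livers and 15.5 ± 0.87 FPKM in PF-WT livers (SD, n = 3 each), with an interval of -0.12 to 0.31 for its log2 fold change. On the FPKM scale, Gabarap and Gabarapl1 were the most abundant of these transcripts in both diets, and Gabarapl2 the least.

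Of the 6 genes whose products process the ATG8 proteins and attach them to lipid, 0 were called by limma and 0 had an unadjusted p under 0.05, and their median log2 fold change was -0.037. Atg3, the enzyme that passes ATG8 proteins to lipid, had 41.7, 48.5 and 42.9 FPKM in ETOH-WT livers, against 47.2, 47.0 and 53.9 FPKM in PF-WT livers, and ETOH-WT liver 2 lay within the PF-WT range. Atg7, which activates the ATG8 proteins, averaged 17.6 ± 1.34 FPKM in ETOH-WT livers and 15.9 ± 4.22 FPKM in PF-WT livers (SD, n = 3 each), and its coefficient of variation in PF-WT livers was 26.5%. Atg4b, the protease that trims them, and Atg5, Atg12 and Atg16l1, which form the conjugation complex, had log2 fold changes of -0.051, -0.026, 0.14 and -0.047 in that order. All 6 overlapped between the diets. The intervals of these log2 fold changes reached no further than -0.37 at their low ends and 0.55 at their high ends.

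Of the cargo receptors and mitophagy genes, 0 of 5 were called by limma and 1, Nbr1, had an unadjusted p under 0.05, while all 5 had positive log2 fold changes, with a median of 0.13. Nbr1, a receptor for ubiquitin-tagged cargo, had 63.5, 55.8 and 60.8 FPKM in ETOH-WT livers, against 53.3, 53.1 and 50.3 FPKM in PF-WT livers (adjusted p = 0.205, limma). Sqstm1, the best known receptor of this kind, had 224, 217 and 207 FPKM in ETOH-WT livers, against 197, 199 and 209 FPKM in PF-WT livers (adjusted p = 0.4998). The Nbr1 livers did not overlap between the diets, whereas for Sqstm1 PF-WT liver 3 was above ETOH-WT liver 3. Pink1, the kinase that marks damaged mitochondria, had 102, 97.2 and 101 FPKM in ETOH-WT livers, against 89.0, 87.6 and 96.9 FPKM in PF-WT livers (adjusted p = 0.359). Bnip3, a receptor on mitochondria, had 126, 115 and 127 FPKM in ETOH-WT livers, against 91.9, 115 and 131 FPKM in PF-WT livers, with PF-WT liver 1 low and PF-WT liver 3 above all ETOH-WT livers. Optn, a receptor for ubiquitin-tagged mitochondria and bacteria, averaged 34.8 ± 1.94 FPKM in ETOH-WT livers and 31.7 ± 1.57 FPKM in PF-WT livers (SD, n = 3 each).

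The spread between livers of a diet was small for most of the 48 genes. Their median coefficient of variation was 7.53% in ETOH-WT livers and 6.11% in PF-WT livers, beside 11.5% and 10.8% over all genes tested. These medians were not matched for level. The genes tested reach down to a mean of 0.5 FPKM, against 2.25 FPKM for the lowest of the 48. The coefficient of variation exceeded 20% for Ulk1 (47.4%) and Ctsf (21.1%) in ETOH-WT livers. In PF-WT livers it did so for Ctss (33.2%), Atg7 (26.5%), Wipi1 (21.2%) and Tfeb (20.9%). The median difference of the 48 genes from the PF-WT mean, on the log2(FPKM + 1) scale, was 0.18, 0.16 and 0.15 in ETOH-WT livers 1, 2 and 3, against 0.029, -0.014 and -0.014 in PF-WT livers 1, 2 and 3. The 3 ETOH-WT livers thus differed little from each other in this median, and none overlapped with the PF-WT livers. The PF-WT mean is the reference, so the PF-WT medians lie near it by construction. The ETOH-WT medians restate the log2 fold changes above and are no separate result.

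Further lysosome and autophagy genes, from 6 lists drawn from general knowledge, were looked up in the same fit. These lists were made with earlier results of these data known, so the shares below only describe them. Of 146 genes listed, 144 were tested, of which 10 were higher (6.94%, beside 3.97% over all genes tested) and 2 were lower (1.39%, beside 2.67%), with a median log2 fold change of 0.076, beside 0.022. The selective autophagy list had 3 of 20 higher, the membrane and sorting list 3 of 26, the list of other lysosomal hydrolases 2 of 28, and the V-ATPase (the proton pump that acidifies the lysosome) and the list of MTORC1 and nutrient sensing genes 1 of 16 and 1 of 27. The list of other autophagosome genes had 0 of 27 higher by limma (2 at an unadjusted p under 0.05) and 1 lower.

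Cd63, a tetraspanin of late endosomes and lysosomes, had 17.3, 22.9 and 17.1 FPKM in ETOH-WT livers 1, 2 and 3, against 5.60, 4.91 and 5.03 FPKM in PF-WT livers 1, 2 and 3. Each ETOH-WT liver held more than 3 times the highest PF-WT value, and the mean was 3.69-fold that of PF-WT livers (log2 fold change 1.69 ± 0.13 (SE), adjusted p = 0.00113, limma). Stbd1, a protein that binds glycogen and ATG8 proteins, had 80.8, 106 and 77.9 FPKM in ETOH-WT livers 1, 2 and 3, against 40.9, 37.7 and 39.4 FPKM in PF-WT livers 1, 2 and 3. It too separated the diets (2.24-fold, log2 fold change 1.13 ± 0.12 (SE), adjusted p = 0.00444, limma), with ETOH-WT liver 2 the highest. Both calls were kept with any 1 liver left out, at adjusted p values of at most 0.00874 and 0.0238. Rtn3 and Ccpg1, receptors for autophagy of the endoplasmic reticulum, were 1.48-fold and 1.36-fold higher (adjusted p = 0.0151 and 0.0410, limma), with no overlap between the diets. Exons of Ccpg1 overlap those of Gm44503 and Pigb over 5383 of 7497 bases, so its fragments cannot be told apart from theirs there.

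Arsa, the arylsulfatase that degrades sulfatide, had 13.8, 17.1 and 13.4 FPKM in ETOH-WT livers, against 8.58, 9.09 and 6.23 FPKM in PF-WT livers (1.86-fold, log2 fold change 0.82 ± 0.15 (SE), adjusted p = 0.0219, limma), and Acp2, the lysosomal acid phosphatase, was 1.37-fold higher (adjusted p = 0.0435). Laptm4b, a lysosomal membrane protein, had 22.4, 22.8 and 21.2 FPKM in ETOH-WT livers, against 13.1, 12.7 and 15.7 FPKM in PF-WT livers (1.6-fold, log2 fold change 0.65 ± 0.10 (SE), adjusted p = 0.0130, limma). Gnptg, a subunit of the enzyme that makes the mannose 6-phosphate tag of lysosomal enzymes, was 1.32-fold higher (adjusted p = 0.0425), and Deptor, an inhibitory partner of MTOR, was 1.35-fold higher (adjusted p = 0.0255). In none of these 5 genes did the diets overlap. Exon bases are shared by Gnptg with Unkl (1113 of 2249), by Arsa with C230037L18Rik (690 of 3680), by Acp2 with Ddb2 (652 of 5186) and by Deptor with Gm9920 (303 of 8874).

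The genes that were lower came from the proton pump and from the start of autophagy. Ambra1, a partner of Beclin 1, had 4.67, 4.24 and 5.22 FPKM in ETOH-WT livers 1, 2 and 3, against 10.0, 8.67 and 12.4 FPKM in PF-WT livers 1, 2 and 3. Every ETOH-WT liver was below every PF-WT liver, and the mean was 0.454 times that of PF-WT livers (log2 fold change -0.98 ± 0.14 (SE), adjusted p = 0.00944, limma), with an adjusted p of at most 0.0360 when any 1 liver was left out. Atp6v1g1, a subunit of the peripheral part of the V-ATPase, had 30.7, 33.3 and 32.2 FPKM in ETOH-WT livers, against 42.7, 54.5 and 51.0 FPKM in PF-WT livers (0.649 times, log2 fold change -0.60 ± 0.11 (SE), adjusted p = 0.0189, limma). Atp6ap2, an accessory subunit of the same pump, was 1.31-fold higher (adjusted p = 0.0375), so that the called genes of the V-ATPase had opposite directions.

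With 1 liver left out in turn, the calls of Gnptg and Atp6ap2 were lost in all 6 fits (adjusted p = 0.0726 to 0.163 and 0.0586 to 0.158). Those of Acp2, Ccpg1 and Deptor were lost without ETOH-WT liver 1 or 3 or without PF-WT liver 1, 2 or 3 (adjusted p = 0.0743 to 0.163, 0.0658 to 0.169 and 0.0638 to 0.0896). Those of Arsa, Laptm4b and Rtn3 were lost without ETOH-WT liver 3 or PF-WT liver 2 (adjusted p = 0.0524 to 0.0638, 0.0502 to 0.0672 and 0.0563 to 0.0820), and that of Atp6v1g1 without ETOH-WT liver 1 or 3 or PF-WT liver 2 (adjusted p = 0.0518 to 0.0853). The count of higher genes on these lists was 2 to 8 in the same fits, beside 83 to 347 over all genes tested. Median-ratio scaling and the fit with no variance trend also ended the calls of Acp2, Atp6ap2, Ccpg1 and Gnptg, and quantile normalization those of Acp2, Ccpg1 and Gnptg, with adjusted p values of 0.0504 to 0.0711. A block for replicate number ended those of Acp2, Atp6ap2, Ccpg1, Deptor and Gnptg (adjusted p = 0.0687 to 0.101, limma).

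**Figure D5:**
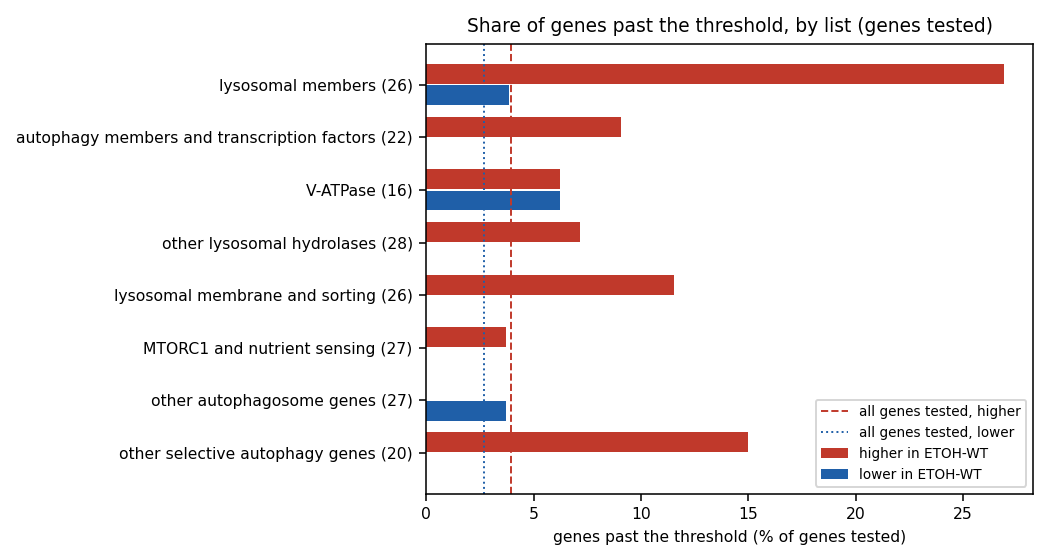
Share of the tested genes of each list that were higher (red) or lower (blue) in ETOH-WT livers, with the number tested in brackets and lines for the shares over all 11346 genes tested. The lysosomal genes chosen first reached 26.9% higher, against 3.97% over all genes, while the lists of further genes lay between 0% and 15.0%. All lists were chosen with earlier results of these data known.

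Markers of liver cell types were looked up beside these results. Of 43 markers tested, 1 was higher (Hnf4a) and 1 was lower (Tat), beside 6.64% of all genes in either direction, and both are hepatocyte genes. Hnf4a, a hepatocyte transcription factor, had 155, 158 and 157 FPKM in ETOH-WT livers, against 113, 110.5 and 114 FPKM in PF-WT livers (adjusted p = 0.0130, limma), and Tat, a tyrosine aminotransferase, had 551, 441 and 563 FPKM in ETOH-WT livers, against 974, 1081 and 1286 FPKM in PF-WT livers (adjusted p = 0.00762, limma). The call for Hnf4a was lost without ETOH-WT liver 3 or PF-WT liver 2 (adjusted p = 0.0639 to 0.0812), and that for Tat was kept. The 8 hepatocyte markers summed to 68501, 62898 and 64046 FPKM in ETOH-WT livers, against 80198, 79277 and 71924 FPKM in PF-WT livers, so that every ETOH-WT sum lay below every PF-WT sum. Most of this sum is Alb. The values of 4 of the 8 markers overlapped between the diets, and Hnf4a and Apob had positive log2 fold changes. By limma 0 of 8 endothelial, 0 of 7 stellate cell, 0 of 4 neutrophil, 0 of 3 cholangiocyte and 0 of 1 lymphocyte markers passed the test. At an unadjusted p under 0.05 there were 1, 1, 2, 1 and 0 of these, in the same order. The neutrophil markers had the largest median log2 fold change of the marker lists, 0.63. The part of a shift in cell make-up in the lysosomal values was not tested.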

How the data were processed

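Liver RNA from 6 mice, 3 per diet, was sequenced by the authors from TruSeq libraries. STAR, HTSeq-count and DESeq2 are named in the paper's methods. The notes of the submitters give TopHat2 2.0.11, HTSeq 0.11.2 and 1.6.3, cutadapt and mm10. The deposited table holds 1 column of FPKM values per library. The unit was inferred from the values. The program that made the FPKM was not given in the sources used here. Because FPKM are not counts, DESeq2 could not be used.

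Groups and replicate numbers came from the labels. Values were used as deposited, as log2(FPKM + 1), for rows whose mean reached 0.5 FPKM, and tested with limma 3.58.1 in R 4.3.3 (eBayes with a variance trend, diet as the only term, two-sided, Benjamini-Hochberg adjustment over 11346 genes). Where a gene name stood on 2 rows, as for Reln, the row of higher mean was taken. Which mice shared a cage was not given in the sources used here, and p-values measure only the spread between these livers. The procedure was tested on simulated data. Ratios of means use FPKM with no pseudocount. Python 3.11.15, pandas 2.3.3 and matplotlib 3.10.9 were used for sequences and figures. Coordinates are those of the table, counted from 1, on GRCm38, and exon overlaps come from GENCODE vM21. Promoter windows come from RefSeq.

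All members, of each further list up to 3 highest and 3 lowest called genes, and the markers were named. The members, lists and markers were chosen with earlier results of these data known. Genes with a like profile over the livers were planned but are not given, since the 6 livers fall into 2 diets. Alternatives were pseudocounts of 0.1 and 2, no filter, a mean of at least 1 FPKM, median-ratio scaling, quantile normalization, array weights, no variance trend, a robust trend, a replicate block, and each liver left out.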

Additional observations from a re-analysis of the deposited data

How the results depend on the processing

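The 10 calls among the 48 genes were counted under 16 alternatives. Ctsz and Neu1 were called under all 16, Gabarapl1 under 15, Hexa under 13, Ctsc and Ctsa under 11, Gaa under 10, Gusb and Map1lc3a under 8 and Scarb2 under 7. With array weights, 16 members were higher and 2 lower (18 called), 27 and 5 genes of the further lists were higher and lower, and 7 markers were called, beside 1327 higher and 945 lower genes in all. Median-ratio scaling gave 6 higher members, 6 higher list genes, a member median of 0.12 and 337 higher and 334 lower genes in all, against 450 and 303, and quantile normalization gave a member median of 0.10 and 386 higher and 351 lower genes. Without the variance trend 6 list genes were higher. Leaving out 1 liver gave 2 to 7 higher and 0 to 1 lower members (2 to 7 called), 2 to 8 higher and 1 to 2 lower list genes, 1 to 4 markers and a member median of 0.14 to 0.18. Over all genes, higher and lower calls were 83 and 76 without PF-WT liver 2, and 114 and 76 without ETOH-WT liver 3. They were 264 and 185 without ETOH-WT liver 1, and 281 and 189 without PF-WT liver 1. They were 281 and 265 without PF-WT liver 3, and 347 and 300 without ETOH-WT liver 2. The cause was not tested, beside the smaller number of livers.

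No pairing of the livers by replicate number was seen. Deviations of same-numbered livers correlated at -0.010, -0.016 and -0.034 across 11346 genes, which are not independent. Those of different-numbered livers correlated at -0.069 to 0.088. With 3 livers per diet, these values cannot decide whether livers were paired. The replicate block gave 5 higher and 1 lower members (6 called), 5 higher list genes, and 253 higher and 201 lower genes in all.

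Some members that were not called changed sign. Ctsd was -0.023 with median-ratio scaling and -0.062 with quantile normalization, and Atg5 was 0.0074 with array weights. With 1 liver left out, the ranges were -0.035 to 0.060 for Ctsd, -0.18 to 0.0028 for Lipa, -0.086 to 0.16 for Tfeb, -0.086 to 0.054 for Tfe3, -0.044 to 0.21 for Wipi1, -0.13 to 0.032 for Atg4b, -0.11 to 0.077 for Atg5, -0.0066 to 0.35 for Atg7, -0.15 to 0.034 for Atg16l1 and -0.0031 to 0.25 for Bnip3. The members that were called kept their direction under every alternative. Depth was not resolved, so no limit from counting can be given.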
